A study of Homo sapiens with 38 samples.

Results

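Both inducible hairpin lines made from H661 cells were profiled in an undepleted state, and the control libraries of those lines are compared here with each other. They were chosen by label, as the control (no doxycycline) arm of 5 antibodies in the shDPPA4 line and the same 5 in the shDPPA2+4 line, which gives 10 of the 38 samples of the series. H661 is a line of large cell lung carcinoma, a non-small cell lung cancer, that expresses DPPA2 and DPPA4. The shDPPA4 line carries a doxycycline-inducible microRNA-type hairpin against DPPA4 in a PiggyBac vector with an mVenus reporter, and the shDPPA2+4 line carries a hairpin against DPPA2 (mVenus) and a hairpin against DPPA4 (tagBFP). Each line is a separately transfected and sorted population and not a clone, so the lines differ in hairpins, reporters and history even without doxycycline. Control cells of both lines received water for 7 days, while the doxycycline arm used below as a further check received 2 µg/mL for 7 days. CUT&RUN, in which an antibody directs a nuclease to cut out the DNA around a chromatin protein, was run with antibodies to the N-terminal part of DPPA4 (DPPA4n), RING1B, PCGF1, MTF2 and EP300.

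RING1B carries the enzyme activity of the Polycomb complex PRC1, which puts ubiquitin on histone H2A, and PCGF1 defines a variant form of that complex that is recruited to CpG islands. MTF2 is a Polycomb-like subunit that brings the methyltransferase complex PRC2 to CpG-rich DNA. EP300 is a histone acetyltransferase of active promoters and enhancers, and DPPA4 with its partner DPPA2 is a chromatin protein of the early embryo that binds CpG-rich sequence. CpG-rich promoters can hold sites of all 5 proteins, and developmental gene clusters such as HOX carry broad Polycomb domains.

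There was 1 library for each antibody in each line. No spread between replicates can be had, the line cannot be told apart from the single library that stands for it, and no test was made. Shares carry 95% Wilson intervals that cover counting error only. Broad domains called by EPIC2 and narrow peaks called by MACS2, both against IgG of the same line, were kept at log2 folds over 1 and FDR values under 0.05. A domain was counted as found in the other line when a domain there covered at least 25% of the shorter of the pair. Such domains are called shared and the rest line-only. Reads in kept domains ranged from 177449 (PCGF1) to 6624283 (DPPA4n) in the shDPPA4 line and from 185445 (PCGF1) to 6850681 (MTF2) in the shDPPA2+4 line.

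The sequences below show what sites held in both lines look like. They are the 200 bases around the MACS2 summit of the shDPPA4 library (hg38, plus strand, CpG in capitals) at the highest-ranked shared promoter of each antibody that had a peak in both lines and whose sequence could be shown. No named PCGF1 promoter met this. The windows lie at chr19:39031502-39031701 (FBXO27), chr14:35122044-35122243 (PPP2R3C and PRORP), chr4:9324298-9324497 (USP17L24) and chr17:82022916-82023115 (CENPX and LRRC45).
DPPA4n, FBXO27: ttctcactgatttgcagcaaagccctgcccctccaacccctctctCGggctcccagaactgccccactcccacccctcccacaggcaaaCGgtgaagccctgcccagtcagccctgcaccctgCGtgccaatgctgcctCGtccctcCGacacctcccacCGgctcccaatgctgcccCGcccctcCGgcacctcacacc
RING1B, PPP2R3C and PRORP: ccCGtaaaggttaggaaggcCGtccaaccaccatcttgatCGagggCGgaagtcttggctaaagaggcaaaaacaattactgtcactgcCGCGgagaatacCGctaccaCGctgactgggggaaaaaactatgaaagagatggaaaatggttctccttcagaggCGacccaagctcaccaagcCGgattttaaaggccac
MTF2, USP17L24: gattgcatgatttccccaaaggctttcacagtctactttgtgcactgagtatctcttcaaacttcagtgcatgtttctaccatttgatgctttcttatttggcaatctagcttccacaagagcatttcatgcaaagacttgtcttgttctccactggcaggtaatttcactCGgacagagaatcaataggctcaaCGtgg
EP300, CENPX and LRRC45: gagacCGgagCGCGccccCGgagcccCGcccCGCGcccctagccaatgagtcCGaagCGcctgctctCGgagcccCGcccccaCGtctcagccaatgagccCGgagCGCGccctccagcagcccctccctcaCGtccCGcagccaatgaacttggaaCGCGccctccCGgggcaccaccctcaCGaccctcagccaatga
The summit of the shDPPA2+4 library lay 5 bp from that of the shDPPA4 library at FBXO27, 19 bp at PPP2R3C, 0 bp at USP17L24 and 51 bp at CENPX. The windows hold 8, 10, 2 and 21 CpGs in the order printed. Over all matched peak pairs the median distance between summits was 66 bp for EP300, 89 bp for DPPA4n, 90 bp for PCGF1, 94 bp for RING1B and 106 bp for MTF2.

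For comparison, the next windows are from sites held by a single line. They are the domains with the most reads for DPPA4n and RING1B that had a MACS2 peak in their own line and that no domain or peak of the other line touched, whatever its fold. This set was chosen after its values were seen. The windows lie at chr13:113001691-113001890 (within the MCF2L gene, 29.2 kb from the nearest start site), chr2:161278544-161278743 (outside protein-coding genes, 28.0 kb from the PSMD14 start site), chr2:207529885-207530084 (the CREB1 promoter) and chr2:211394480-211394679 (within the ERBB4 gene).
DPPA4n, shDPPA4 only, MCF2L: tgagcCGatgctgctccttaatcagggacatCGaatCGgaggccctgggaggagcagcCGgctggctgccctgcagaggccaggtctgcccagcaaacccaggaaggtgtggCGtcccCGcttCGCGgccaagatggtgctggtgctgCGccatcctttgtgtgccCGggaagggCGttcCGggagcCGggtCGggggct
DPPA4n, shDPPA2+4 only, nearest to PSMD14: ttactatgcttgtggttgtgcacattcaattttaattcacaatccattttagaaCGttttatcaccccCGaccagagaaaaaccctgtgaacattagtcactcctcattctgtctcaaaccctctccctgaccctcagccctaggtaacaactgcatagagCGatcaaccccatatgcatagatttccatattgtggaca
RING1B, shDPPA4 only, CREB1: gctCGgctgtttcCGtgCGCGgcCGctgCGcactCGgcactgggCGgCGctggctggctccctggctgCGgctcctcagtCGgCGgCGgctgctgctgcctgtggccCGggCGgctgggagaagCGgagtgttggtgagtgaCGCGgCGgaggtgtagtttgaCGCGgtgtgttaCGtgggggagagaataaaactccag
RING1B, shDPPA2+4 only, ERBB4: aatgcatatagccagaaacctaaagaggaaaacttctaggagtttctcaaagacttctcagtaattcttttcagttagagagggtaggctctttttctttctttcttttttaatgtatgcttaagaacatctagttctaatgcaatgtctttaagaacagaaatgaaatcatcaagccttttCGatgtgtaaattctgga
These windows hold 14, 3, 22 and 1 CpGs in the order printed, so single-line sites ranged from CpG-dense promoter DNA to AT-rich DNA. At the start sites of all 19970 promoters, 70.8% of windows of this length held 10 or more CpGs. Among DPPA4n peaks of the shDPPA4 line that share was 16.3% for the 17866 line-only peaks, against 49.7% for the 31557 shared peaks. Among DPPA4n peaks of the shDPPA2+4 line it was 14.6% of 10302 line-only peaks, against 47.2% of 34115 shared peaks. RING1B gave 21.2% and 51.1% in shDPPA4 and 11.4% and 50.3% in shDPPA2+4 (line-only, then shared), and line-only RING1B peaks of the shDPPA2+4 line had a median GC content of 39.5%, against 56.5% for shared peaks. MTF2 line-only peaks reached 10 CpGs in 11.9% (shDPPA4) and 9.87% (shDPPA2+4), against 36.8% and 38.2% of shared peaks. EP300 line-only peaks did so in 46.4% and 39.0%, against 72.3% and 73.3% of shared peaks. For PCGF1 both kinds were CpG-dense, with 72.7% of line-only and 83.7% of shared peaks in shDPPA4 and 85.4% and 86.9% in shDPPA2+4. The median number of CpGs was 14 at line-only and 16 at shared PCGF1 peaks of the shDPPA4 line, and 18 and 17 in shDPPA2+4. Line-only sites were thus poorer in CpG than shared sites for DPPA4n, RING1B, MTF2 and EP300 in both lines, whereas both kinds of PCGF1 site were close in shDPPA2+4.

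The first question was how many regions of each control library were also found in the other line. DPPA4n had 76174 domains in the shDPPA4 line, of which 51.8% (51.5 to 52.2) were found in the shDPPA2+4 line, and 44555 domains in the shDPPA2+4 line, of which 90.7% (90.4 to 90.9) were found in the shDPPA4 line. The smaller DPPA4n list was thus nearly contained in the larger. RING1B behaved in the same direction, with 51.9% (51.5 to 52.4) of 42613 shDPPA4 domains and 76.4% (75.9 to 76.9) of 31502 shDPPA2+4 domains shared. MTF2 had the longest lists, and 72.9% (72.6 to 73.1) of 105640 shDPPA4 domains and 64.6% (64.3 to 64.9) of 101461 shDPPA2+4 domains were shared. EP300 shared 66.3% (65.7 to 66.9) of 25491 shDPPA4 domains and 58.1% (57.5 to 58.7) of 27562 shDPPA2+4 domains. PCGF1 had the shortest lists and the lowest share of domains from both sides, with 37.6% (36.7 to 38.5) of 11067 shDPPA4 domains and 39.7% (38.7 to 40.6) of 10164 shDPPA2+4 domains. With MACS2 peaks the PCGF1 shares were 27.9% (25.7 to 30.1) of the shDPPA4 list and 64.5% (60.9 to 68.0) of the shDPPA2+4 list, and in that line RING1B (61.4%), MTF2 (61.3%) and EP300 (47.5%) were lower. The other line's domain lists covered between 0.219% and 4.60% of the autosomes and X, and its MACS2 peak lists between 0.0100% and 1.45%.

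**Figure D1:**
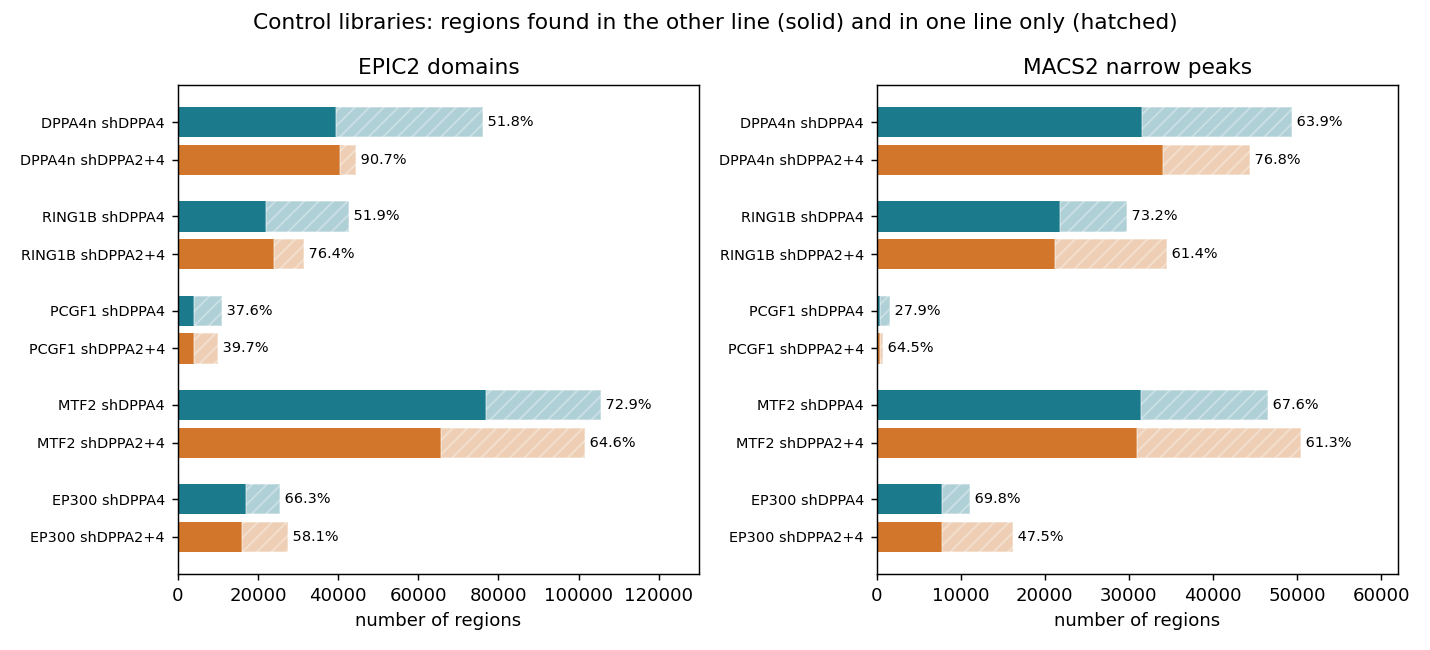
Number of regions (horizontal axis) in each control library for EPIC2 domains (left) and MACS2 narrow peaks (right), shDPPA4 in teal above shDPPA2+4 in orange. The solid part of a bar was found in the other line, the hatched part was not, and the printed percent is the shared share, lowest for PCGF1 among the EPIC2 lists at 37.6% and 39.7%.

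List lengths, and with them the direction of the difference, depended on the caller. RING1B had more EPIC2 domains in the shDPPA4 line (log2 ratio over shDPPA2+4 of 0.44) but fewer MACS2 peaks there (29812, against 34551, a log2 ratio of -0.21). MTF2 also turned round, with a log2 ratio of 0.06 for domains and -0.11 for peaks (46569, against 50414). EP300 had fewer regions in the shDPPA4 line with both callers (11146 peaks, against 16261), and its log2 ratio for domains moved to 0.01 at a fold limit of 2 on the log2 scale. DPPA4n had more regions in the shDPPA4 line with both (49423 peaks, against 44417), and PCGF1 too (1604 peaks, against 696). With peaks the DPPA4n shares came closer together, at 63.9% (63.4 to 64.3) of the shDPPA4 list and 76.8% (76.4 to 77.2) of the shDPPA2+4 list. For RING1B peaks the larger share changed sides, with 73.2% (72.7 to 73.7) of the shDPPA4 list and 61.4% (60.9 to 61.9) of the shDPPA2+4 list.

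Library size relative to IgG was greater in the line with more domains for DPPA4n, RING1B and EP300, but smaller in that line for MTF2 and PCGF1. Within the domain lists the log2 fold over IgG and the log2 ratio of reads to IgG reads differ by a constant for each library, which gives the library's size as a multiple of its IgG. For DPPA4n this ratio was 2.96 in shDPPA4 and 1.06 in shDPPA2+4, and for RING1B 1.74 and 1.26. For MTF2 it was 2.49 in shDPPA4 and 3.13 in shDPPA2+4, for EP300 1.38 and 1.80, and for PCGF1 2.18 and 3.16. The rabbit antibodies of a line shared a single IgG library: in 30 pairs of such libraries the IgG reads were equal in 100% of domains with identical ends, against 19.5% in 36 pairs across lines. DPPA4n, RING1B, MTF2 and EP300 are therefore not independent comparisons of the lines, and the part that IgG and library size have in the list lengths was not tested.

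Domains with the most reads were mostly shared. Domains of each list were ranked by reads and divided into 10 equal parts (deciles). In the top decile of DPPA4n domains, 100.0% of shDPPA4 and 99.9% of shDPPA2+4 domains were shared, whereas in the bottom decile the shares were 14.2% and 70.6%. For RING1B the top decile gave 98.8% (shDPPA4) and 99.9% (shDPPA2+4) and the bottom decile 16.2% and 42.3%. For MTF2 the values were 99.4% in both lines at the top and 47.7% and 32.1% at the bottom. EP300 reached 97.9% in shDPPA4 and 94.4% in shDPPA2+4 at the top, with 31.8% and 18.3% at the bottom. PCGF1 had the lowest shares in the top decile, at 85.0% (shDPPA4) and 89.8% (shDPPA2+4), and domains entered that decile at 27 and 31 reads. Length ran the same way: every RING1B and MTF2 domain of 5 kb or more was shared (186 and 1602 in shDPPA4, 106 and 2737 in shDPPA2+4), and so were 99.8% of such DPPA4n domains in each line. The rule favours long domains, since a short domain lying inside a long one counts as a match, so these shares are partly set by it. Counted by bases of whole lists, 48.2% (shDPPA4) and 76.2% (shDPPA2+4) lay in both lists for RING1B. The values were 74.3% and 58.0% for MTF2 and 59.1% and 81.7% for DPPA4n. Ranked by reads per kb, the top decile of DPPA4n was shared at 99.2% in shDPPA4 and 99.7% in shDPPA2+4. In the same order of lines it was 93.1% and 94.5% for RING1B and 92.5% and 95.2% for MTF2. EP300 gave 89.6% and 90.4%, and PCGF1 63.1% and 61.8%.

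**Figure D2:**
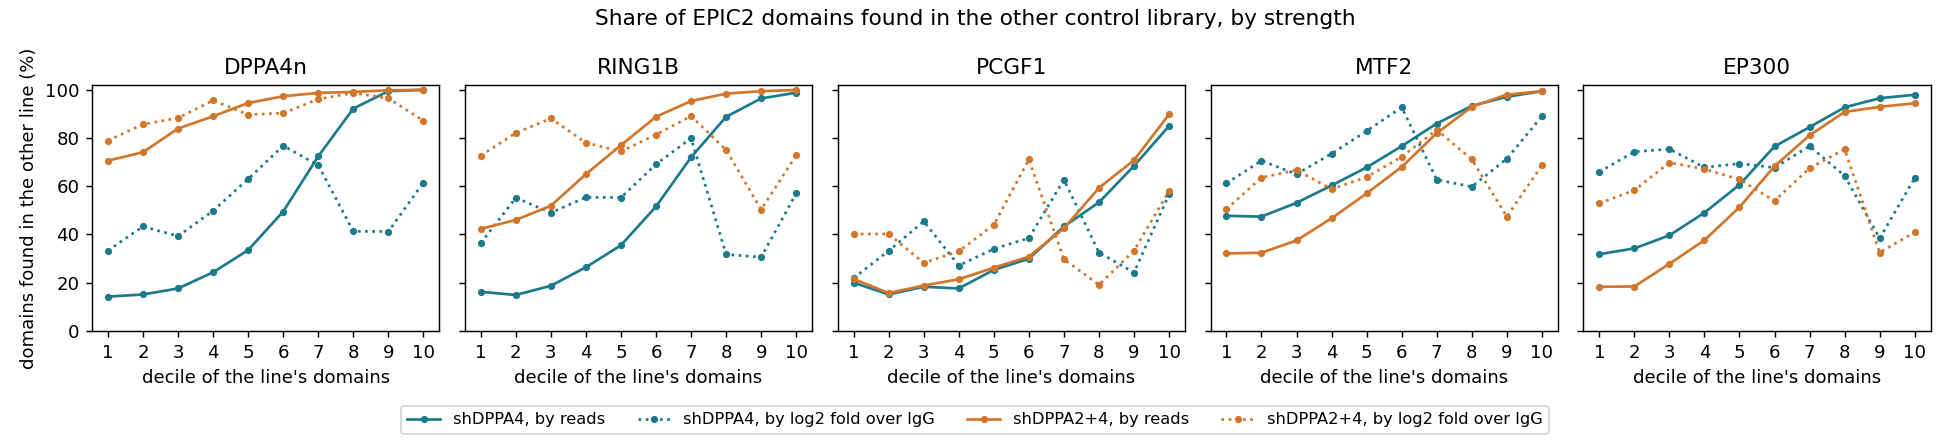
Percent of each line's EPIC2 domains found in the other control library (vertical axis) by decile of the list (horizontal axis, weakest to strongest), ranked by reads (solid) or by log2 fold over IgG (dotted), shDPPA4 in teal and shDPPA2+4 in orange. Ranked by reads, the share is far higher in the strongest than in the weakest decile for every antibody except DPPA4n in shDPPA2+4, which starts at 70.6%, and ranked by fold it drops to 30.6% in decile 9 for RING1B in shDPPA4.

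Ranking by log2 fold over IgG gave another picture. For RING1B in the shDPPA4 line the shared share was 79.9% in decile 7 by fold and 30.6% in decile 9, where 87.6% of the domains had no IgG read at all. DPPA4n in shDPPA4 had 76.8% in decile 6 and 41.2% in decile 9, where 72.6% had no IgG read. Line-only domains more often lacked IgG reads than shared ones, in 36.7% against 13.2% of DPPA4n domains in shDPPA4 and in 37.2% against 14.7% of RING1B domains in shDPPA4. A high fold in these lists can thus stand for few reads over an empty control.

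Line-only domains were less often at promoters and held fewer reads. A promoter here is the start site of a protein-coding gene with 1500 bp on either side. For DPPA4n in shDPPA4, 6.37% (6.12 to 6.62) of line-only domains touched a promoter, against 34.2% (33.7 to 34.6) of shared domains, with median read counts of 16 and 66. In shDPPA2+4 the DPPA4n shares were 6.65% and 33.5%. RING1B gave 12.6% of line-only and 52.8% of shared domains in shDPPA4, and 18.5% and 51.2% in shDPPA2+4. MTF2 gave 4.73% and 14.8% in shDPPA4 and 3.87% and 16.5% in shDPPA2+4. EP300 gave 18.9% and 52.5% in shDPPA4 and 19.7% and 53.0% in shDPPA2+4. PCGF1, with the highest share of its domains at promoters among the 5 proteins, gave 30.0% and 70.1% in shDPPA4 and 32.2% and 70.6% in shDPPA2+4. The order was the same in all 10 libraries.

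Some of the RING1B domains found only in shDPPA4 had a counterpart under the other caller. Of the 20479 RING1B domains found only in shDPPA4, 33.3% touched a MACS2 peak of the shDPPA2+4 line, whereas of the 7436 found only in shDPPA2+4 6.66% touched a peak of the shDPPA4 line. For DPPA4n these shares were 3.71% and 3.18%. The strictest class, with a MACS2 peak in its own line and no region of either caller in the other, held 7125 DPPA4n domains (9.35% of the list) in shDPPA4 and 950 (2.13%) in shDPPA2+4. It held 3823 (8.97%) and 1400 (4.44%) for RING1B, 1149 (1.09%) and 2063 (2.03%) for MTF2, 921 (3.61%) and 2557 (9.28%) for EP300, and 167 (1.51%) and 30 (0.295%) for PCGF1, in shDPPA4 and then in shDPPA2+4. These sites were weak, with medians of 25 reads (shDPPA4) and 10 reads (shDPPA2+4) for DPPA4n and 11 and 8 for RING1B. The sites with the most reads, named after their values were seen, were for DPPA4n a domain of 216 reads in MCF2L in shDPPA4 only, and one of 206 reads near PSMD14 in shDPPA2+4 only, which held 92 IgG reads. For RING1B the first was a domain of 88 reads at the promoter of CREB1, a cyclic AMP-responsive transcription factor gene, in shDPPA4 only. MTF2 had a domain of 167 reads at HSP90B1, an endoplasmic reticulum chaperone gene, in shDPPA2+4 only, at a log2 fold over IgG of 1.10. PCGF1 had 58 reads at TMEM267 in shDPPA4 only. EP300 had 141 reads in shDPPA2+4 only at chr1:121399601-121401700, outside protein-coding genes and 215 kb from the nearest protein-coding start site. Blacklisted regions were not removed from these lists.

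Counted by promoter, a larger share was held in both lines than when counted by domain. The rule was looser here, since a domain of each line only had to touch the promoter, without overlapping the other line's domain. Of the 19970 promoters, 13397 carried a DPPA4n domain in both lines, which is 93.5% of those with a domain in shDPPA4 and 99.1% of those with a domain in shDPPA2+4. For RING1B the number was 11507 (90.4% and 96.1%), for MTF2 11271 (91.8% and 90.9%), for EP300 9111 (91.0% and 86.9%) and for PCGF1 3194 (62.3% and 65.9%). A DPPA4n domain stood at the promoter in shDPPA4 only for 926 genes (4.64% of all promoters) and in shDPPA2+4 only for 115 (0.576%). RING1B had 1223 (6.12%) in shDPPA4 only and 470 (2.35%) in shDPPA2+4 only. PCGF1 had 1932 (9.67%) and 1654 (8.28%), MTF2 1006 (5.04%) and 1130 (5.66%), and EP300 899 (4.50%) and 1370 (6.86%). At 641 of the 1223 RING1B promoters counted as shDPPA4 only (52.4%), the shDPPA2+4 line had a MACS2 peak. For MTF2 57.2% of the shDPPA4-only promoters had a domain touching some domain of the other line that lay under the fold limit or away from the promoter.

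Ranks of read density, the reads of a promoter's domain per kb, were then set side by side over promoters with a domain in both lines. Spearman's rho was 0.88 for DPPA4n (n = 13397), 0.85 for MTF2 (n = 11271), 0.70 for RING1B (n = 11507), 0.66 for EP300 (n = 9111) and 0.28 for PCGF1 (n = 3194). The promoters of a pair of libraries share those libraries, their depth and the CpG content of promoters, so rho is a description. Of the 998 densest promoters of each line (the top 5%), 658 were the same for MTF2, 650 for DPPA4n, 554 for RING1B, 532 for EP300 and 288 for PCGF1. Ranked by log2 fold over IgG in place of density, rho fell to 0.28 (DPPA4n), 0.32 (RING1B), 0.16 (PCGF1), 0.48 (MTF2) and 0.17 (EP300).

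**Figure D3:**
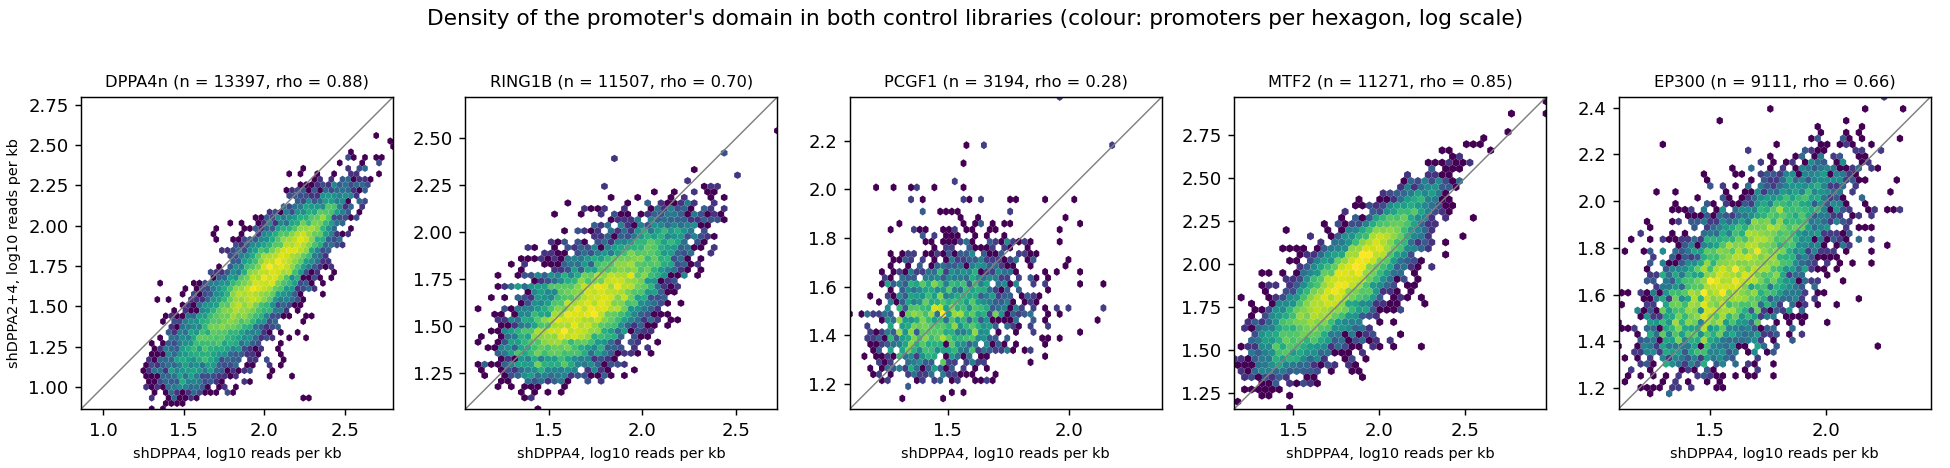
Read density of the domain at each promoter (log10 reads per kb) in shDPPA4 (horizontal) and shDPPA2+4 (vertical) for promoters with a domain in both lines, coloured by the number of promoters per hexagon, with the line of equal density in grey. DPPA4n (rho = 0.88) and MTF2 (rho = 0.85) form narrow bands, and PCGF1 (rho = 0.28) a cloud.

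With promoters that lack a domain ranked last, all 10 libraries could be compared over 19970 promoters. The same antibody in both lines gave 0.95 for DPPA4n, 0.86 for RING1B, 0.86 for MTF2 and 0.82 for EP300, each the highest value of its shDPPA4 library, although EP300 in shDPPA2+4 stood as close to DPPA4n in shDPPA2+4 (0.82) as to EP300 in shDPPA4. PCGF1 was the exception: its libraries correlated with each other at 0.55, while PCGF1 in shDPPA4 reached 0.62 with RING1B of shDPPA4 and 0.57 with DPPA4n of shDPPA2+4. By domains as well, 65.7% of PCGF1 domains in shDPPA4 were found in the RING1B list of that line, against 37.6% in the PCGF1 list of the other line, the RING1B list being the longer one (42613 domains, against 10164).

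**Figure D4:**
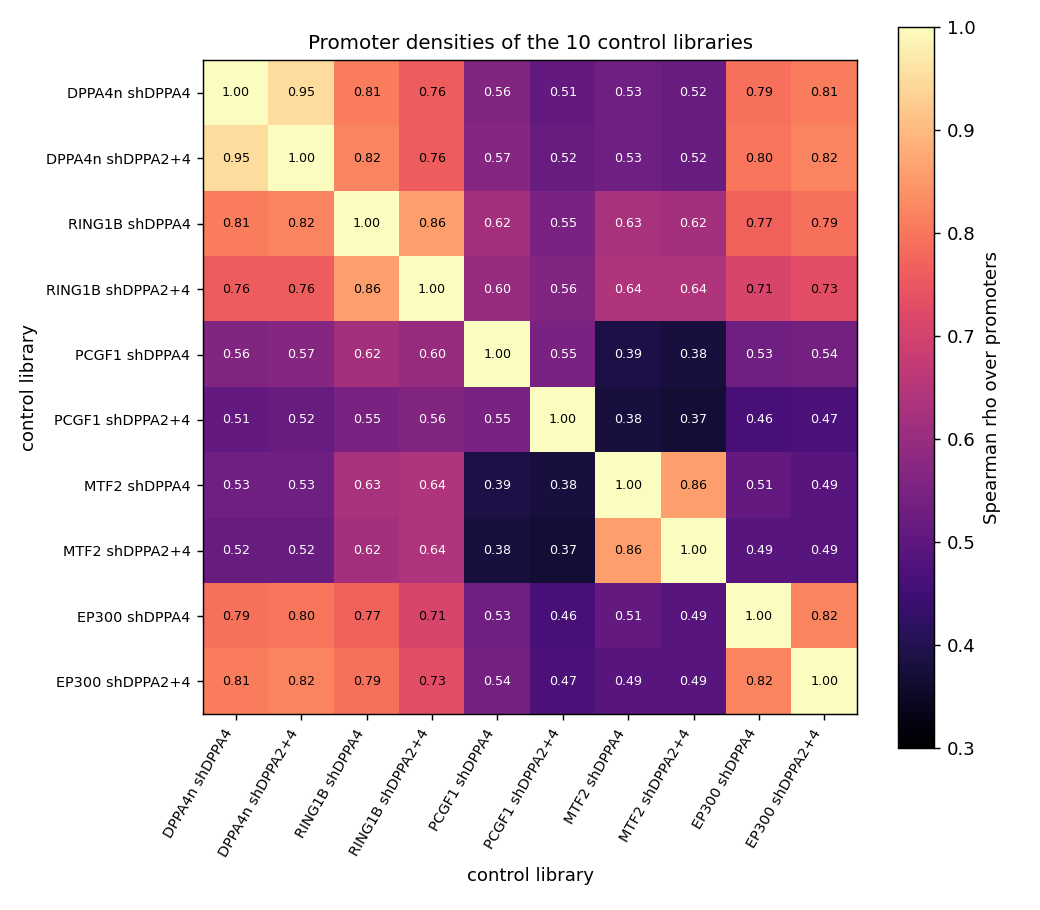
Spearman's rho of promoter density over 19970 promoters (promoters without a domain ranked last) between all pairs of the 10 control libraries, shDPPA4 left of and above shDPPA2+4 for each antibody. The pairs of the same antibody are the blocks along the diagonal, bright for DPPA4n (0.95) and dark for PCGF1 (0.55).

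The promoters that ranked highest in both lines included several multicopy genes. For DPPA4n they were FBXO27, a substrate receptor of an SCF ubiquitin ligase, with 597 reads per kb in shDPPA4 and 339 in shDPPA2+4 (rank 2 in both), ANXA2R, which encodes a receptor for annexin A2, with 628 and 308, and TMEM191B with 538 and 274. FAM86B1 on chromosome 8 was the densest RING1B promoter in both lines (525 and 347 reads per kb), was also among the best 3 for PCGF1 (104 and 93.6), MTF2 (578 and 756) and EP300 (213 and 241, rank 1 and rank 4). USP17L24 and USP17L22, members of a deubiquitinase gene array on chromosome 4, led for MTF2 with 905 and 880 and with 933 and 730 reads per kb. FAM86B1, FAM72A, SRGAP2, TMEM191B and the USP17L genes have near-identical copies, between which reads may be split or stacked, so their levels are uncertain. Among the other genes, the start site shared by PPP2R3C, a phosphatase regulator, and PRORP, a mitochondrial RNase P subunit, had 275 RING1B reads per kb in shDPPA4 and 273 in shDPPA2+4. The divergent promoter of CENPX, part of a histone-fold complex in DNA repair, and LRRC45 had 181 and 279 EP300 reads per kb. The promoter of HNRNPL, a splicing regulator, had 209 and 187. IgG was also high there, with 148 and 121 IgG reads beside 438 and 786 EP300 reads, at log2 folds of 1.10 and 1.85. The RING1B domain at PPP2R3C held 70 and 80 IgG reads beside 659 and 409 RING1B reads. For PCGF1 the first was the promoter of ATG12, an autophagy gene, and AP3S1, with 15 reads in a 100-base domain in each line (150 reads per kb), and the second that of EIF2S1, an initiation factor subunit, and ATP6V1D, with 9 reads in shDPPA4 and 24 in shDPPA2+4.

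The PCGF1 examples show how small the counts behind a density can be. Between lines the density ratio was centred on its median over promoters, which removed a log2 shift of 1.08 (DPPA4n), 0.38 (RING1B), 0.00 (PCGF1), -0.34 (MTF2) or -0.26 (EP300) of shDPPA4 over shDPPA2+4. After that, 187 DPPA4n promoters (1.40%) were over 2-fold denser in shDPPA4 and 152 (1.13%) over 2-fold less dense. RING1B had 233 (2.02%) denser and 403 (3.50%) less dense, PCGF1 107 (3.35%) and 101 (3.16%), MTF2 186 (1.65%) and 66 (0.586%), and EP300 303 (3.33%) and 200 (2.20%). Among RING1B promoters with under 20 reads in the poorer line 11.5% passed 2-fold, against 1.27% of those with 50 reads or more. For DPPA4n these shares were 8.94% and 1.55%, for MTF2 9.41% and 0.732%, for EP300 9.74% and 1.63%, and for PCGF1 186 of 2326 promoters and 1 of 95.

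Most of these density differences went with the length of the domain and not with its reads. Of the 403 RING1B promoters less dense in shDPPA4, 388 had the shorter domain in shDPPA2+4, and only 26 were over 2-fold apart in reads in the same direction. Of the 303 EP300 promoters denser in shDPPA4, 294 had the shorter domain in shDPPA4 and 16 were over 2-fold apart in reads. For DPPA4n 39 of the 187 denser and 7 of the 152 less dense promoters were over 2-fold apart in reads in the same direction.

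Among promoters with 50 reads or more in both lines, EML2, a microtubule-associated protein gene, stood highest in shDPPA4 for DPPA4n. It had 966 reads in a 6.0 kb domain in shDPPA4 and 59 reads in 2.70 kb in shDPPA2+4, and it was among the few where reads and density moved together. The EML2 domains overlapped only in part (45639001-45645000 in shDPPA4 and 45638001-45640700 in shDPPA2+4), so their reads come from partly different stretches. CCDC25 (154 reads, against 54) and TMEM253 (622, against 78) followed, each with domains at different places in the lines. HOXC11 was the farthest in the other direction, with 322 reads over 6.50 kb in shDPPA4 and 5603 reads over 56.1 kb in shDPPA2+4. HOXC11 shows a domain that was split differently: the HOXC domain next to it held 12157 reads over 50.7 kb in shDPPA4 but began downstream of the HOXC11 window. ELMO2, whose product activates Rac with DOCK proteins, and PSMC3IP, a meiotic recombination factor gene, came next, with lower density in shDPPA4: 538 reads in 3.70 kb, against 281 in 1.30 kb, and 297 reads in 4.00 kb, against 71 in 0.7 kb. These are read counts as deposited, and over promoters in both lines the median DPPA4n count was 211 in shDPPA4 and 94 in shDPPA2+4. For RING1B the promoters denser in shDPPA4 were ID3, an inhibitor of helix-loop-helix factors (64 reads in 0.6 kb, against 60 in 2.00 kb), CENPF, a kinetochore gene, and the R3HDM1 and ZRANB3 promoter. Those less dense were THAP11, a zinc finger factor gene (101 reads in 1.70 kb, against 64 in 0.500 kb), CCDC85C and SESN3, a stress-induced sestrin.

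For PCGF1 the largest difference at this depth was 2.02-fold, at WNT11. MYO10, an unconventional myosin gene, had 50.0 reads per kb in shDPPA4 and 29.7 in shDPPA2+4, and HOXB7 had 46.2 and 30.0. Both had fewer reads in shDPPA4 (55, against 95, and 60, against 105). WNT11 encodes a Wnt ligand and had 31.9 and 64.3, and HOXA13 had 30.6 and 60. Reads moved with density at WNT11 (51 in shDPPA4 and 135 in shDPPA2+4) but not at HOXA13 (95 and 72). For MTF2 SMPD3, a sphingomyelinase gene, had 247 and 114 reads per kb, although the reads were 148 in shDPPA4 and 309 in shDPPA2+4. FXYD7 had 28.9 and 154 reads per kb, from domains that did not overlap (35142001-35143800 in shDPPA4 and 35141101-35141800 in shDPPA2+4). The CDK5 and SLC4A2 promoter was denser in shDPPA4 for MTF2 (197, against 94.8) and PCGF1 (59.2, against 40.0). Its reads were fewer in shDPPA4, at 138 against 275 for MTF2 and 71 against 100 for PCGF1, in shorter domains. For DPPA4n this promoter had 170 and 167 reads per kb before centring, a centred log2 ratio of -1.06. For EP300 the RPS6KB1 and TUBD1 promoter had 63 reads in 0.300 kb in shDPPA4 and 66 reads in 0.7 kb in shDPPA2+4, and GLRX5, an iron-sulfur cluster gene, had 65 reads in 1.50 kb and 89 in 0.7 kb.

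Among promoters that no domain of the other line touched, even below the fold limit, the strongest often lay beside a domain of the other line. HOXB3 had a DPPA4n domain of 653 reads over 9.40 kb in shDPPA4, and that domain touched or abutted a domain of the shDPPA2+4 line that did not reach the promoter. The same held for the histone gene H4C7 (712 reads) and for SLURP1 (608 reads) in shDPPA4, and in shDPPA2+4 for KLK15 (63 reads), CREB5 (44 reads) and NPBWR1 (36 reads). RING1B had 404 reads at ETV2, an ETS factor gene of blood vessel development, and 279 at PMP22, a myelin protein gene, in shDPPA4 only, and 123 at TCF21, a helix-loop-helix factor gene, in shDPPA2+4 only. Each of these RING1B domains also touched or abutted a domain of the other line. At TCF21 MTF2 had domains in both lines, of 1236 and 1744 reads. Isolated cases were found for PCGF1 at SLC39A10, a zinc transporter gene (48 reads in shDPPA4, the nearest shDPPA2+4 domain 36.7 kb away), and at ADCY5, an adenylyl cyclase gene (55 reads in shDPPA2+4, 135 kb). For EP300 one was found at SNRPA, which encodes a U1 snRNP protein, and ACTMAP (140 reads in shDPPA2+4, 25.5 kb). The domains at SLC39A10 and at SNRPA lay near the fold limit, with 11 and 35 IgG reads and log2 folds of 1.00 and 1.15. The ADCY5 domain had 4 IgG reads and a log2 fold of 2.12. MTF2 had 353 reads at ANTXRL, 294 at VSIG10L and 238 at SERPINA9 in shDPPA2+4 only, each in a domain that touched or abutted a shDPPA4 domain.

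Several promoters appeared for more than 1 antibody, with the IgG library of each line shared between them. ANTXRL had RING1B (88 reads) and MTF2 (353 reads) domains in shDPPA2+4 only, while DPPA4n had 325 reads there in shDPPA4 and 136 in shDPPA2+4. SPEGNB likewise had RING1B (97 reads) and MTF2 (202 reads) in shDPPA2+4 only. EML2 had RING1B in shDPPA4 only (196 reads), beside its DPPA4n difference. HEPN1 went both ways, with MTF2 in shDPPA4 only (106 reads) and RING1B in shDPPA2+4 only (86 reads). The RING1B domains at ANTXRL, SPEGNB and EML2 touched or abutted a domain of the other line that did not reach the promoter. So did the MTF2 domains at ANTXRL and HEPN1.

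The longest domain of a list lay at the same locus in both lines for every antibody but PCGF1. The longest MTF2 domain covered NKX2-1, a lung lineage transcription factor gene, and SFTA3 on chromosome 14, with 9846 reads over 38.5 kb in shDPPA4 and 13338 reads over 47.0 kb in shDPPA2+4. The longest RING1B domain lay there too, with 4382 reads over 28.1 kb and 2715 reads over 23.5 kb, and IgG reads in it numbered 337 and 338. The second longest RING1B domain covered EBF3, a neural transcription factor gene, in both lines (2123 and 1981 reads). The longest DPPA4n domain was the HOXC cluster in both, and the longest EP300 domain lay on chromosome 5 outside any start site (721 reads over 5.70 kb in shDPPA4 and 1262 reads over 7.0 kb in shDPPA2+4). For PCGF1 the SP9 promoter carried the longest domain in shDPPA2+4 (397 reads over 8.40 kb), whereas in shDPPA4 the longest lay beside NKX2-1 (351 reads over 8.20 kb).

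By gene list, promoters of developmental transcription factors were held by both lines for MTF2 in 78 of 85, DPPA4n in 75, RING1B in 71, PCGF1 in 54 and EP300 in 34. Over all promoters the shares in both lines were 56.4% for MTF2, 67.1% for DPPA4n, 57.6% for RING1B and 45.6% for EP300, and PCGF1 was held by both at 3194 of 19970. Promoters held in shDPPA4 only and in shDPPA2+4 only made up 4.64% and 0.576% of all promoters for DPPA4n, 9.67% and 8.28% for PCGF1, 5.04% and 5.66% for MTF2, and 4.50% and 6.86% for EP300. EP300 was in shDPPA4 only at 13 of these 85 and in shDPPA2+4 only at 9, DLX6 and EN2 among the first and FOXA1 and GBX1 among the second. Of 39 HOX genes, 36 had DPPA4n in both lines, with HOXB3 and HOXD4 in shDPPA4 only, and 24 had PCGF1, with HOXC8 and HOXC9 among the 3 in shDPPA4 only. Of 60 Wnt signalling genes, PCGF1 was held by both lines at 20, by shDPPA4 only at 2 (LGR4 and WNT10A) and by shDPPA2+4 only at 8, FZD4 and FZD9 among them, while MTF2 was held by both at 53 and by a single line at 0. Among 41 Polycomb subunit genes, DPPA4n was at all 41 in both lines and RING1B at 35. Of 80 ribosomal protein genes, 73 (91.2%) had RING1B in both lines and 19 (23.8%) had PCGF1 in both. These RING1B and PCGF1 shares at ribosomal protein genes lay above those of the same antibody over all promoters, and so did DPPA4n (98.8%) and EP300 (61.2%). MTF2 was in both lines at 33 of these 80 genes (41.2%), below its 56.4% over all promoters. PCGF1 was in shDPPA4 only at 17 of these genes and in shDPPA2+4 only at 13. Olfactory receptor genes, which are silent in such cells, had DPPA4n in both lines at 3 of 415 and MTF2 at 26, with MTF2 in shDPPA4 only at 14 and in shDPPA2+4 only at 29. In the centred ratios the medians of DPPA4n over gene lists of 39 genes or more with a ratio lay between -0.22 (olfactory receptors, from 3 promoters) and 0.01, with 0 over all promoters by construction.

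The genes of the profiled proteins and hairpin targets were looked up in every pair. DPPA4n stood at all 6 of them in both lines, with 137 reads at DPPA4 in shDPPA4 and 48 in shDPPA2+4, and with 239 and 137 reads at DPPA2. The DPPA4 reads lay in domains of 4.50 kb and 1.70 kb, which gives 30.4 and 28.2 reads per kb. The centred log2 ratio of these densities was -0.98, although shDPPA4 had more reads. RING1B was at DPPA2 with 107 and 43 reads and at DPPA4 with 11 and 8. MTF2, PCGF1 and EP300 had no domain at DPPA4 in either line. At EP300, RING1B (69 reads), PCGF1 (18 reads) and MTF2 (10 reads) were found in shDPPA4 only. There the RING1B and MTF2 domains touched or abutted a shDPPA2+4 domain, counted at any fold. The nearest PCGF1 domain of shDPPA2+4 was 68.6 kb away. The promoter of PGK1, after which the reporter promoter of the vectors is named, gave centred log2 ratios of 0.44 for DPPA4n, 0.34 for RING1B, 0.10 for MTF2 and -0.01 for EP300.

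The doxycycline libraries of DPPA4n and RING1B gave a further reading of line-only domains in samples that the comparison had not used. Each shares the IgG of the control library of its line. Of the 36701 DPPA4n domains found only in shDPPA4, 8.74% (8.45 to 9.03) were in the doxycycline library of shDPPA4 and 7.98% (7.70 to 8.26) in that of shDPPA2+4, a difference of 0.76 percentage points. With MACS2 peaks this difference was 5.76 points, and at a log2 fold above 2 it was 3.65 points. Of the 4152 found only in shDPPA2+4, 21.4% (20.2 to 22.7) were in the doxycycline library of shDPPA2+4 and 13.6% (12.6 to 14.6) in that of shDPPA4, a difference of 7.85 points (4.90 with MACS2 peaks and 18.1 at a log2 fold above 2). Shared DPPA4n domains were found there at 59.6% to 66.0%, and in the parental H661 library of DPPA4n at 49.2% (shDPPA4 list) and 49.4% (shDPPA2+4 list), against 4.93% and 7.66% for line-only domains. The hairpins target DPPA4 in both lines, so a lost domain after doxycycline and one never there cannot be told apart.

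For RING1B both kinds of line-only domain were found more often in the doxycycline library of shDPPA4. Of the 20479 domains found only in shDPPA4, 63.0% (62.4 to 63.7) were in the doxycycline library of shDPPA4 and 18.4% (17.9 to 18.9) in that of shDPPA2+4, a difference of 44.6 points (9.69 with MACS2 peaks). Of the 7436 found only in shDPPA2+4, however, 20.4% (19.5 to 21.3) were in the doxycycline library of that same line and 49.7% (48.5 to 50.8) in that of shDPPA4, a difference of -29.3 percentage points (-4.95 with MACS2 peaks and -16.5 at a log2 fold above 2). The doxycycline RING1B list of shDPPA4 held 61213 domains, against 27192 in that of shDPPA2+4, and shared domains leaned the same way, with 94.9% of the shDPPA2+4 list in the library of shDPPA4 and 68.4% in its own.

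**Figure D5:**
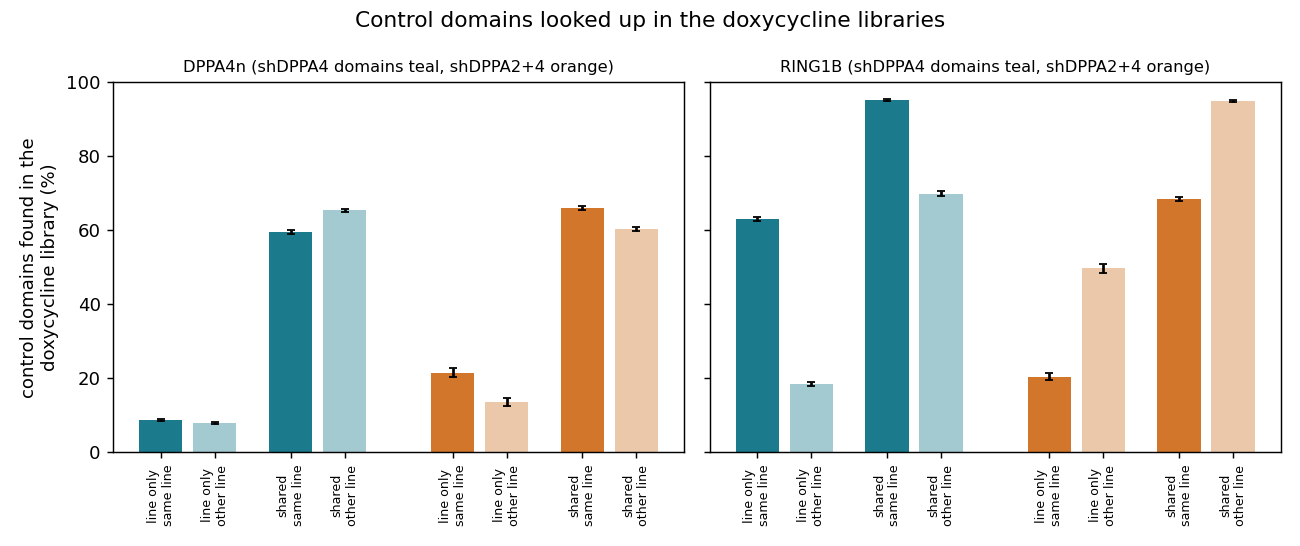
Percent of control EPIC2 domains found in the doxycycline library (vertical axis) for DPPA4n and RING1B, with shDPPA4 domains in teal left of shDPPA2+4 domains in orange, split into line-only and shared and into the library of the same line (dark) and of the other line (pale). Error bars are 95% Wilson intervals, and for RING1B both kinds of domain from either line were found more often in the shDPPA4 library, for example 49.7% against 20.4% for shDPPA2+4-only domains.

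Chromosomes showed no large shift between the lines. The median centred log2 ratio of a chromosome with at least 100 promoters lay between -0.06 (chromosome 18) and 0.10 (chromosome 13) for DPPA4n, -0.11 (18) and 0.11 (13) for RING1B, -0.16 (10) and 0.10 (7) for PCGF1, -0.06 (5) and 0.07 (20) for MTF2, and -0.06 (9) and 0.08 (20) for EP300. In the doxycycline libraries chromosome 13 was again the highest, at 0.08 for DPPA4n and 0.17 for RING1B. IgG density in the same domains, centred over chromosomes, ranged from -0.51 to 0.19 for PCGF1 and from -0.24 to 0.15 for the rabbit antibodies. In segments of 10 Mb with at least 15 promoters, 0 of 268 medians for DPPA4n and 1 of 217 for EP300 lay past 0.5 in either direction.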

How the data were processed

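The deposited files were region lists from CUT&RUN in H661 cells. Per the labels and the methods, reads were trimmed (Trim Galore 0.6.6), aligned to GRCh38 (BWA 0.7.13), and filtered with SAMtools 1.9 and Picard 2.6.0, and deepTools 3.5.0 and MACS2 (2.27.1 in the submitters' processing notes) are named. MACS2 was run in paired-end mode against matched IgG, and the methods describe EPIC2 for histone modifications but give no settings of it for CUT&RUN. The authors deposited, per domain, read counts of the library and of IgG, a p-value and FDR, a score and a log2 fold over IgG, and per MACS2 peak a fold (ratio), a score and −log10 p and q values. No read files were used. Every region fitted the chromosome lengths of the hg38 reference.

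Lists were limited to the autosomes and X and to the study's limits (log2 fold over 1, FDR under 0.05), without removing blacklisted regions. Promoters were start sites of 19970 protein-coding genes (GENCODE) with 1500 bp on either side, and took the domain with the most reads per kb. Named genes were, for each antibody, the 3 best by the worse rank, the 3 largest centred ratios in each direction with at least 50 reads in both lines, the 3 line-only promoters with the most reads per line, and the genes of profiled proteins, hairpin targets and vector parts. From each gene list up to 2 genes per class, in alphabetical order, were named. A few named promoters are not reported here. Members and lists were chosen with earlier results of these data known. With 1 library per antibody and line there is no test. Overlap code was checked on simulated regions. Python 3.11.15, NumPy 2.4.6, pandas 2.3.3, SciPy 1.17.1 and Matplotlib 3.10.9 were used. Alternatives were the caller, fold limit, overlap rule, list size, promoter width and ranking value.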

Additional observations from a re-analysis of the deposited data

How the results depend on the processing

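No paired analysis was possible because each antibody had a single library per line, all numbered as replicate 1. Shares of domains found in the other line are given for shDPPA4, then shDPPA2+4. With MACS2 peaks they were 63.9% and 76.8% (DPPA4n), 73.2% and 61.4% (RING1B), 27.9% and 64.5% (PCGF1), 67.6% and 61.3% (MTF2), 69.8% and 47.5% (EP300). At a log2 fold above 2 they were 49.6% and 81.6%, 42.5% and 65.1%, 27.7% and 31.4%, 58.8% and 58.1%, 40.6% and 39.5% in the same order of antibodies. With an overlap of 50% of both regions they were 37.7% and 64.4%, 34.6% and 46.8%, 22.9% and 24.9%, 37.9% and 39.5%, 44.5% and 41.1%. In lists cut to equal size by log2 fold they were 59.0% and 63.2%, 53.0% and 58.0%, 39.0% and 37.8%, 73.6% and 63.0%, and 61.9% for EP300 in shDPPA4. Chosen after seeing the data, lists of equal size by reads gave 75.7% and 81.7%, 64.7% and 71.9%, 39.3% and 38.3%, 74.0% and 63.5%, 65.1% and 61.3%, and counting any region of either caller gave 54.8% and 93.1%, 68.5% and 79.6%, 42.0% and 43.7%, 77.3% and 67.4%, 70.9% and 61.8%. PCGF1 had the lowest share in both lines under each setting for domains, and MACS2 peaks of shDPPA2+4 were the exception.

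The rank correlation by log2 fold over IgG was 0.28 (DPPA4n), 0.32 (RING1B), 0.16 (PCGF1), 0.48 (MTF2) and 0.17 (EP300). At a log2 fold above 2 it was 0.87, 0.68, 0.87 and 0.62 for DPPA4n, RING1B, MTF2 and EP300, and with 500 bp around the start site 0.71 for RING1B and 0.68 for EP300. The log2 ratio of region numbers turned round with MACS2 for RING1B (-0.21) and MTF2 (-0.11) and at a log2 fold above 2 for EP300 (0.01), and with MACS2 it was 0.15 for DPPA4n and 1.20 for PCGF1. The promoter share of line-only minus shared domains moved with 500 bp to -35.6 points for PCGF1 in shDPPA4 and -35.2 for EP300 in shDPPA2+4. Line-only regions found in the doxycycline library of the same minus the other line gave, with MACS2 and then at a log2 fold above 2, 5.76 and 3.65 points for DPPA4n in shDPPA4, 4.90 and 18.1 in shDPPA2+4, 9.69 and 45.9 for RING1B in shDPPA4, and -4.95 and -16.5 in shDPPA2+4. The cause of these shifts was not tested. PCGF1 had 95 promoters at 50 reads or more in both lines, which limits how many of its ratios could be named.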
